A study of Mus musculus with 42 samples.

Results

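The 39 genes described here are interferon-stimulated genes that belong to none of the large interferon-induced families. They were taken from a list of symbols, drawn up with earlier results of these data known, and all 39 were found among the 21897 protein-coding genes of the annotation. They were sorted by what their products do into ISG15 conjugation (6 genes), RNA sensing and helicases (9), nucleotides and nucleases (5), ADP-ribosylation (3), nuclear bodies (4), membrane or secreted proteins (6) and 6 others. Chromatin immunoprecipitation with sequencing (ChIP-seq) was done in bone marrow-derived macrophages from wild-type (WT) mice and from mice that lack the nuclear receptor Nur77, encoded by Nr4a1 (Nur77-KO, here KO). All mice were males of the strain C57Bl6/J aged 6 to 12 weeks, and all cells were differentiated for 7 days in L929-conditioned medium. Cells were untreated (0 h) or received lipopolysaccharide (LPS) of bacteria at 100 ng/ml for 1 or 18 h, and each of these 6 groups had 3 libraries for RNA polymerase II (Pol II), 3 for acetylated lysine 27 of histone H3 (H3K27ac, found at promoters and enhancers in use) and 1 input without antibody, 42 libraries in all. The KO is a whole-body deletion. Its genotype label reads only "cre", whereas the methods describe floxed Nr4a1 crossed with CMV-Cre, offspring bred until Cre was lost, and littermate controls, so a contribution of Cre was not tested. The labels do not say whether the 3 libraries of a group came from separate mice, so p-values measure the spread between these libraries only.

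Type I interferons such as IFN-beta bind a receptor made of Ifnar1 and Ifnar2, which activates the kinases Jak1 and Tyk2. These act on transcription factors such as Stat2, which together with Irf9 binds the interferon-stimulated response element (ISRE) in front of its target genes. In macrophages LPS is sensed by Tlr4, and the branch of its signalling that runs through the adaptor Ticam1 (TRIF) activates Irf3 and induces IFN-beta, which then acts back on the cells. Some interferon-stimulated genes are also bound directly by Irf3. Their products conjugate the ubiquitin-like ISG15, sense foreign RNA, deplete or alter nucleotides, add ADP-ribose, build nuclear bodies or act at membranes.

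The promoters of the members were searched for short motifs, shown here because the ISRE is the element through which interferon is known to act. The sequences are from RefSeq on build GRCm38.p6, from 250 bases before to 50 bases after a start, and 31 of the 39 members matched, with 44 promoters. Usp18, Dhx58, Zbp1, Parp9, Parp14, Ly6e, Tor3a and Rtp4 had no entry. On either strand, the ISRE core GAAANNGAA was found in 10 of the 44 member promoters (22.7%) and in 8.56% of all 32851 promoters of that length. The AP-1 motif TGANTCA was found in 4 (9.09%, against 7.81%). The NBRE, AAAGGTCA, to which Nur77 binds as a monomer, was found in 0 of 44, against 1.51%. No AP-1 match overlapped a match of the ISRE core. These are matches of letters and not measured binding sites. The members with the core were Isg15, Rsad2, Ifih1, Eif2ak2, Ifi44, Ddx58, Trim25, Tdrd7, Adar and Bst2, and those with AP-1 were Rsad2, Ifi35, Uba7 and Xaf1. The ISRE sites of 7 of these members follow on the strand of the gene, with the core in capitals on whichever strand it was matched.
Isg15, chr4:156200872-156200900: gtagGAAAAGGAAACCGAAACAGAAaata
Rsad2, chr12:26456553-26456581: tggtccaactTTCATTTTCagaaaacaga
Ifih1, chr2:62646349-62646377: agaattcgcgTTCCCTTTCctgtttctca
Ifih1, chr2:62646206-62646233: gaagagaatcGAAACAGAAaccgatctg
Eif2ak2, chr17:78882533-78882561: ccgccggGAAAACGAAACAGAAgagaacc
Ifi44, chr3:151749895-151749923: aaagtttctcTTCATTTTCtacaggcttg
Ddx58, chr4:40239804-40239832: ctgaggcagtTTCGATTTCctatggccag
Trim25, chr11:88999384-88999412: gcccctcctgTTCAGTTTCgattccttcc
In Isg15 3 matches of the core run into each other, in Eif2ak2 2 do, and the other sites shown hold a single match. The AP-1 matches of Rsad2 and of Xaf1 are shown for comparison, with the motif in capitals.
Rsad2, chr12:26456523-26456549: tctgtttaacTGAGTCAagggaggtgt
Xaf1, chr11:72301581-72301607: cctgccgctgTGAGTCAggctgggcaa
The whole 250 bases before the start are given for Rsad2, the member with the most Pol II per kb at 1 h of LPS, and for Isg15, again with the ISRE core in capitals. In Rsad2 the core and the AP-1 match lie close together.
Rsad2, chr12:26456453-26456702: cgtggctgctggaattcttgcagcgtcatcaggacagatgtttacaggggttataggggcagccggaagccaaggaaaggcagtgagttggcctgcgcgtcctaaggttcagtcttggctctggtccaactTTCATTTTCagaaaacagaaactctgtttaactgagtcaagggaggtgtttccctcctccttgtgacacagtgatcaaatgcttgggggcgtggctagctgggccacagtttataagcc
Isg15, chr4:156200819-156201068: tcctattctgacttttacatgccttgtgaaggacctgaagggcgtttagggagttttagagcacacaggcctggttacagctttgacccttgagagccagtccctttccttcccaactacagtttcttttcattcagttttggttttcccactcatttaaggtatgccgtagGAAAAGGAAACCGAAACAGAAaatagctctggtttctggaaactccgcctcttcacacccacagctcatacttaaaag

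A Pol II value is the normalized tags (tags per 10 M tags of the library, M for mega) of enriched regions from 500 bp before a gene to 500 bp past its end. An H3K27ac value is the same sum within 2500 bp of the start, and a value of 0 means that no enriched region was found, not that no read lay there. Libraries held 21.7 to 36.1 M tags for Pol II, 13.5 to 31.1 M (WT) and 23.6 to 55.4 M (KO) for H3K27ac and 25.6 to 45.3 M for input. Changes are differences of log2(normalized tags + 10), which understate changes of low values, folds are likewise ratios of normalized tags + 10, and a gene was called at a limma adjusted p under 0.05 over all genes tested. At 0 h the Pol II value of Nr4a1 was 189, 188 and 208 in WT and 87.8, 76.1 and 70.2 in KO (adjusted p = 1.2e-04). After LPS Nr4a1 was low in both genotypes, and at 1 h it was not lower in KO (25.5, 23 and 30.4 in WT, 33.5, 39 and 36.6 in KO, 0.36, adjusted p = 0.089). At 18 h it was 7.46, 5.98 and 0 in WT and 0 in every KO library (-0.49, adjusted p = 0.044). H3K27ac of Nr4a1 was not called between the genotypes at any time. All 6 macrophage markers had Pol II in every 0 h library, and of 6 neutrophil or precursor markers 1 did, with summed Pol II of 15.9 to 22.6 in WT and 39.3 to 45.3 in KO and Ly6g, S100a9, Mpo and Elane at 0. Summed H3K27ac of the neutrophil or precursor markers was 72.4 to 86.4 in WT and 162 to 179 in KO. That of 4 stromal markers was 724 to 847 in WT and 613 to 622 in KO. That of 4 lymphoid markers was 262 to 287 in WT and 170 to 243 in KO. In 3 libraries the members stood apart from the other libraries of their group: Pol II of WT 0 h replicate 1, where members and all genes were both lower (median -0.13), and H3K27ac of KO 1 h replicate 1 and of KO 18 h replicate 1. The KO 18 h input held few regions (15 members at 0, highest 76.2), whereas the other inputs reached 109 to 596 normalized tags at a member. Every Pol II library was above its input for 36 of 39 members at 0 h in either genotype and for 38 or 39 at the later times. An enriched region can be longer than a gene, and 100% of the Pol II of Daxx, Ifi35, Isg15 and Trex1, 96.3% of that of Ms4a4c, 87.8% of that of Cmpk2, 82.1% of that of Ly6e and 47.3% of that of Rsad2 came from regions that lay mostly outside the gene window and were shared out by their overlap. This share of Pol II was also large for Isg20 (99.7%), Dtx3l (95.7%), Sp110 (91.6%), Bst2 (90.5%), Phf11d (85%) and Sp100 (71.1%), among others. For H3K27ac it was 100% for Samhd1 and Trim25, 94% for Trex1, 93.5% for Rsad2 and 91.1% for Cmpk2. It was 78.9% for Ms4a4c, 77.1% for Znfx1, 74.2% for Ly6e and 52.5% for Bst2. More Pol II per cell and more cells that carry it cannot be told apart in these libraries.

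LPS raised Pol II over nearly all members. After 1 h in WT, 36 of 39 were called higher, whereas 18.6% of 13240 genes tested were, and the median change of the members was 1.70 against -0.82 over all genes. After 18 h in WT all 39 were higher (background 33.2%, median 2.32 against -0.00). In KO 32 of 39 were higher at 1 h (background 20.6%, median 1.31 against -0.62) and all 39 at 18 h (background 28%, median 2.62 against -0.18). The comparisons at 1 and 18 h share their 0 h libraries. When every region that overlapped an input region was left out, which drops most long regions, 14 members could be tested at 18 h in WT and 13 in KO, and of these 8 and 9 were called lower and none higher.

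Ifih1, which encodes the RNA sensor MDA5 (chr2:62595798-62646255), had the largest change at 1 h in either genotype. Its Pol II value went from 175, 221 and 228 to 14778, 14864 and 15233 in WT (69-fold) and from 205, 194 and 151 to 19280, 17483 and 17661 in KO (94.5-fold). By 18 h it had come down to 2793, 2744 and 2772 in WT and 4104, 4247 and 4235 in KO, still above every 0 h library. Rsad2 (viperin, which makes a chain-terminating nucleotide, chr12:26442746-26456452) rose 40.5-fold in WT and 32.8-fold in KO at 1 h, and Herc6, the main ISG15 ligase of the mouse, 27.7-fold and 22.2-fold. Cmpk2, a nucleotide kinase beside Rsad2, rose 14.4-fold and 10-fold, and Sp110, a nuclear body protein, 10.7-fold and 13.4-fold. With input regions left out the changes of Sp110 turned to -1.53 in WT and -0.86 in KO and that of Herc6 in KO to -0.38.

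At 18 h other members led. Ifi44, an antiviral GTP-binding protein, was listed at 0 in all 0 h libraries and reached 1151, 1113 and 1289 in WT and 1690, 1614 and 1552 in KO. Ms4a4c, a membrane protein of the Ms4a family (chr19:11404770-11427246), reached 3158, 2914 and 2966 in WT and 3015, 3023 and 3136 in KO, changes of 6.36 and 7.20 from 0 h, where its libraries lay below the input (10.2 to 34.1 against 82.6 and 85.2). Herc6 rose 68.5-fold in WT and 86.2-fold in KO at 18 h, Cmpk2 56.5-fold and 98.6-fold, and Rsad2 52.8-fold and 63.6-fold. The folds of Cmpk2 and Rsad2 depend on how a region they shared was divided. The change of Herc6 in KO turned to -0.59 with input regions left out. The smallest change at 18 h was that of Ifi35, with 0.43 in either genotype.

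Few members fell. After 1 h 3 of 39 were lower in WT (background 68.4%) and 4 in KO (background 62.2%). Uba7, the enzyme that activates ISG15, went from 541, 516 and 549 to 191, 238 and 237 in WT (change -1.24) and from 510, 463 and 420 to 179, 177 and 184 in KO (-1.31). Pml, the scaffold of nuclear bodies, changed by -0.81 in WT and -1.60 in KO, and Ly6e, a membrane-anchored protein, by -0.39 and -1.59. In WT Pml lay at the median of all genes and Ly6e above it, and with every library centred on its median gene the changes were 0.01 and 0.39. Samhd1, a dNTP hydrolase, rose by 0.58 in WT and fell by 0.73 in KO, but over 500 bp on either side of its start the KO change was 0.13. Mov10, Tor3a and Bst2 were called higher in WT and not in KO, where their changes were 0.03, 0.13 and 0.30, but the test of the difference between the genotypes was passed by Tor3a and not by Mov10 or Bst2 (adjusted p = 7.4e-05, 0.082 and 0.23).

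**Figure D1:**
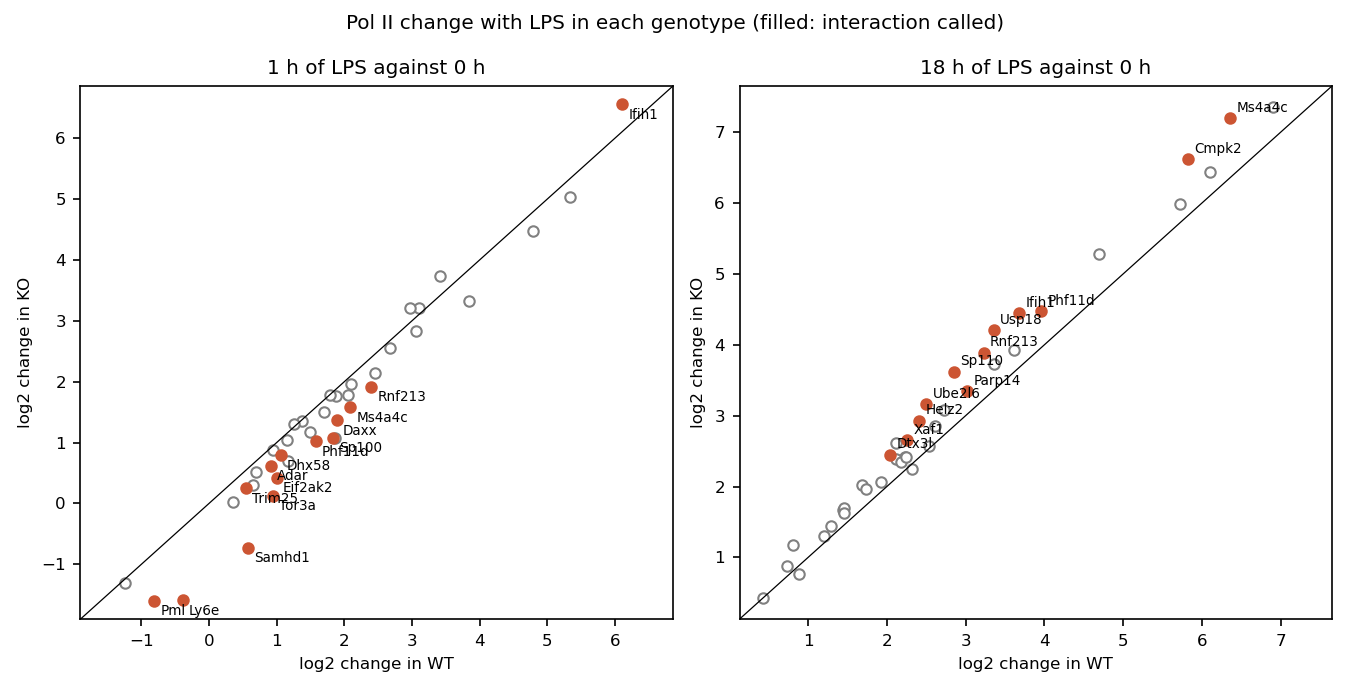
Change of Pol II on LPS (log2 of normalized tags + 10) in WT on the x axis and in KO on the y axis for the 39 members, with 1 h in the left panel and 18 h in the right. The line marks equal change, and filled, named points are members with a called interaction, 14 at 1 h and 12 at 18 h. At 1 h all of them but Ifih1 lie under the line, and at 18 h all lie above it.

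Levels of different genes were compared per kb of the Pol II window, which is the gene with 500 bp on either side. At 0 h in WT the highest mean was that of Trex1, a DNA exonuclease (103 normalized tags per kb), with all of it from regions mostly outside its window, before Trim25, a ubiquitin ligase that acts on RIG-I (79.3), and Znfx1, an RNA helicase (73.7), and the lowest were Herc6 (1.19), Ms4a4c (1.16) and Ifi44 (0). At 1 h Rsad2 came first on this measure (1078), before Ifih1 (291), Parp14 (268) and Cmpk2 (258). At 18 h Rsad2 (1430 ± 375, SD, n = 3) and Cmpk2 (1042 ± 297) stood above Parp14 (261) and Rnf213 (233), and the ranges of Rsad2 and Cmpk2 overlapped. In KO both had a mean of 1420, as genes within a shared region do. The median over the members was 17, 68.3 and 93.9 normalized tags per kb in WT and 14.2, 48.2 and 108 in KO at 0, 1 and 18 h. Of the 38 pairs of neighbours in this order, the library ranges overlapped for 31, 22 and 20 in WT, so much of the order between neighbours was within the spread.

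The genotypes differed in opposite directions at 1 and 18 h. At 0 h 4 of 38 members tested were lower in KO and none was higher (background 2.73% lower, and 14 members at an unadjusted p under 0.05), and without WT 0 h replicate 1 11 were lower. At 1 h 28 of 39 were lower in KO (background 7.5%) and 1 was higher (background 38.2%), with a median difference of -0.35 for the members and 0.24 for all genes. At 18 h 11 of 39 were higher in KO (background 7.57%) and none was lower (background 13.5%), with medians of 0.18 and -0.10. Of the 28 that were lower at 1 h, 8 were higher at 18 h (28.6% of these and 72.7% of the 11). They were Cmpk2, Daxx, Herc6, Parp14, Phf11d, Rnf213, Samhd1 and Usp18. For Cmpk2 the call at 18 h depends on how a region shared with Rsad2 was divided. Under every alternative but that on input regions, 11 of the 29 calls at 1 h held, 2 of the 11 at 18 h and none of the 4 at 0 h. Those that held at 1 h were Cmpk2, Daxx, Dhx58, Ly6e, Parp14, Pml, Rnf213, Samhd1, Tor3a, Xaf1 and Znfx1. Leaving out replicate 2 everywhere left 18 calls at 1 h and 4 at 18 h. Over 500 bp around the start 19 and 5 calls were left, whereas median centring gave 36 and 25. All counts under alternatives are given without the share of all genes called, so they do not compare the members with other genes.

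**Figure D2:**
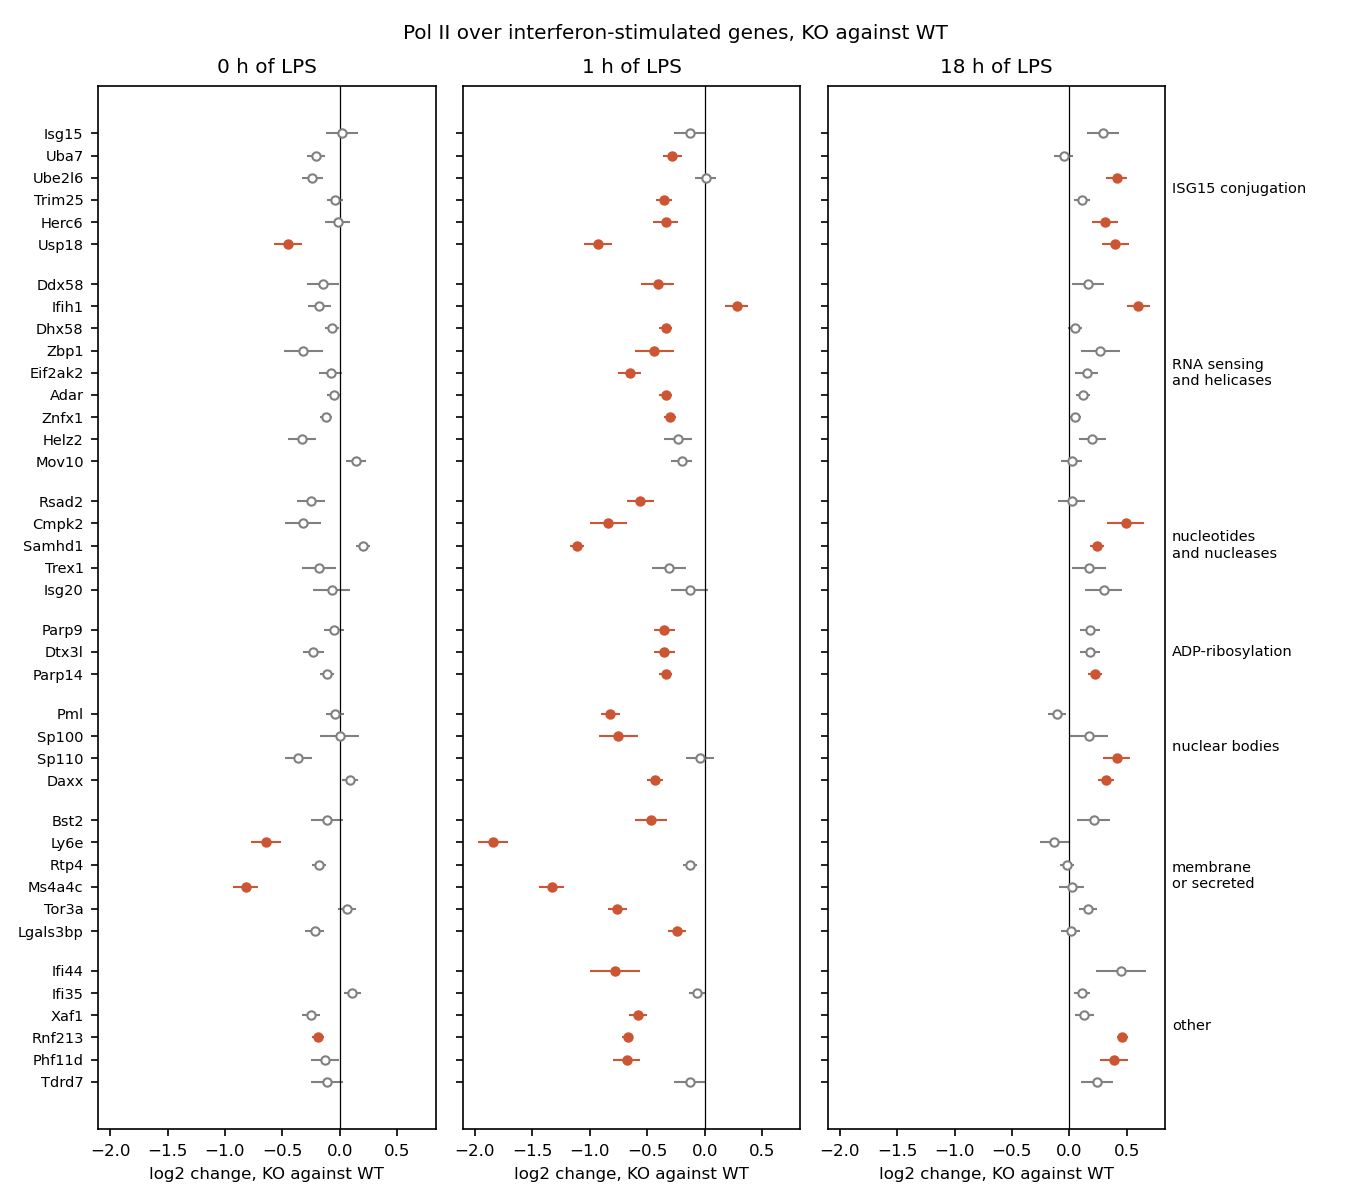
Difference of Pol II between KO and WT (log2 of normalized tags + 10) for each member at 0, 1 and 18 h, ordered by role. Points are fitted differences with bars of 1 SE, filled red where called. At 1 h 28 members are called below 0 and only Ifih1 above, whereas the 11 called at 18 h are all above 0.

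The shift was seen in each library. In the 3 KO libraries of 1 h, 35, 38 and 37 of the 39 members lay below the WT mean, with median differences of -0.35, -0.37 and -0.38, whereas the median of all genes was 0.17 to 0.20 above WT. At 18 h 6, 4 and 5 members lay below the WT mean in the KO libraries, and the medians were 0.22, 0.20 and 0.15 against -0.06, -0.03 and -0.14 for all genes. When each library was centred on its own median gene, the median difference was -0.62 for the members and 0.01 for all genes at 1 h, and 0.33 and 0.03 at 18 h.

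**Figure D3:**
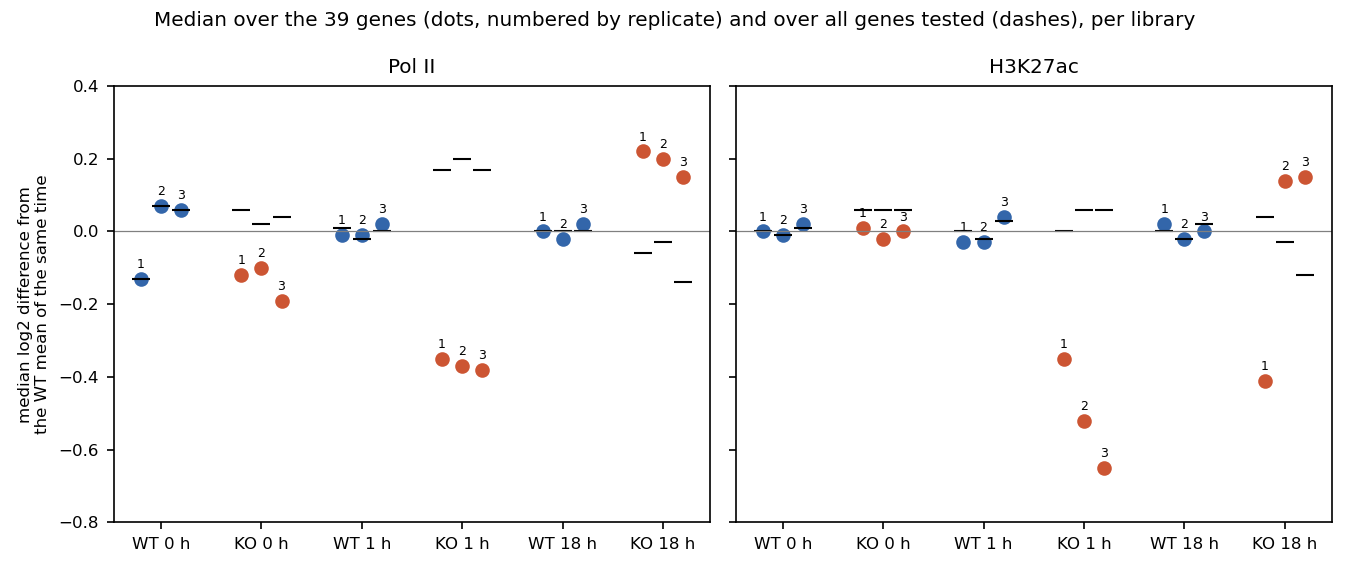
Median difference from the WT mean of the same time (log2 of normalized tags + 10) in every library, for Pol II and H3K27ac. Numbered dots are the medians over the 39 members by replicate and dashes those over all genes. Pol II dots of KO lie at -0.38 to -0.35 at 1 h and at 0.15 to 0.22 at 18 h, and for H3K27ac KO 18 h replicate 1 lies at -0.41 while the other KO libraries of 18 h lie at 0.14 and 0.15.

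Of the ISG15 conjugation genes 4 of 6 were lower in KO at 1 h and 3 of 6 higher at 18 h. The largest difference was that of Usp18, the protease that removes ISG15 and restrains the interferon receptor (chr6:121245906-121270917). Its Pol II value at 1 h was 473, 451 and 435 in WT and 222, 259 and 219 in KO (difference -0.93 ± 0.12, SE, adjusted p = 1.7e-05), and at 18 h it was 2086, 1998 and 2223 in WT and 2770, 2791 and 2765 in KO (0.40, adjusted p = 0.026). The genotypes did not overlap at either time, and KO was low at 1 h and high at 18 h, but over 500 bp around the start the difference at 1 h was 0.08. At 0 h Usp18 was also lower in KO (170, 258 and 171 against 144, 152 and 126, adjusted p = 0.032), and over the start alone that difference was 0.29. Herc6 went the same way, with 3050, 2911 and 3071 in WT and 2371, 2460 and 2312 in KO at 1 h and 7468, 7244 and 7658 against 9264, 9448 and 9095 at 18 h. Ube2l6, which carries ISG15 to the ligase, had no called difference at 1 h (0.01 ± 0.09) and was higher in KO at 18 h, with 1617, 1489 and 1436 against 1101, 1100 and 1211 (adjusted p = 0.0037). Trim25 (-0.35) and Uba7 (-0.28) were lower at 1 h and not called at 18 h, where they were 0.11 and -0.05. The difference between these times was called for Trim25 (adjusted p = 0.0023) and not for Uba7 (adjusted p = 0.13). Isg15 itself was called at no time, with 447, 498 and 475 in WT and 474, 387 and 441 in KO at 1 h.

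Of the 9 RNA sensing genes and helicases 6 were lower and 1 was higher in KO at 1 h. Eif2ak2, the RNA-activated kinase PKR, was 1005, 948 and 945 in WT and 638, 583 and 613 in KO (-0.65 ± 0.10, adjusted p = 5.4e-05), and every KO library lay below every WT library. With input regions left out this difference turned to 2.07 (adjusted p = 0.0023). Smaller differences were called for Zbp1, a sensor of Z-form nucleic acid (-0.44), Ddx58, which encodes RIG-I (-0.41), Adar, an RNA-editing enzyme (-0.34), Dhx58, which encodes the RIG-I-like LGP2 (-0.34), and Znfx1 (-0.30). Over the start alone those of Adar and Ddx58 turned to 0.26 and 0.14. Ifih1 was the exception. It was higher in KO at 1 h (0.28 ± 0.10, adjusted p = 0.026) and at 18 h (0.60 ± 0.10, adjusted p = 2.2e-04), the latter being the largest difference of any member at 18 h. Its libraries did not overlap between the genotypes at either time, but the difference at 1 h was close to the median of all genes and was 0.01 after centring. Helz2 (-0.23) and Mov10 (-0.20), both helicases, were not called at 1 h.

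Of the genes for nucleotides and nucleases 3 of 5 were lower at 1 h and 2 higher at 18 h. Samhd1 (chr2:157097533-157135265) was 2238, 2061 and 2164 in WT and 990, 1030 and 953 in KO at 1 h (-1.11 ± 0.06, adjusted p = 1.3e-09). At 18 h the order was reversed, with 8354, 8230 and 8372 in WT and 9722, 9757 and 9904 in KO (0.24, adjusted p = 0.015). Enriched regions covered 94.4% of the Samhd1 window in WT and 65.1% in KO at 1 h. Cmpk2 was 3204, 2660 and 3136 in WT and 1736, 1608 and 1647 in KO at 1 h (-0.84 ± 0.16, adjusted p = 4.6e-04). In the later libraries it was 8128, 14198 and 14034 in WT and 16067, 15394 and 18079 in KO (0.49, adjusted p = 0.035). WT replicate 1 was the lowest library for Cmpk2 but the highest for Rsad2, with which a region was shared in 5 of 18 libraries. The call of Cmpk2 at 18 h therefore depends on how that region was divided.

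Rsad2 was 16721, 16868 and 13990 in WT and 11772, 10107 and 10422 in KO at 1 h (-0.56 ± 0.12, adjusted p = 0.0019), and at 18 h it was 27392, 17949 and 17742 in WT against 20311, 19460 and 22855 in KO, which overlap (0.02 ± 0.12). Rsad2 and Cmpk2 lie back to back and shared an enriched Pol II region in 5 of 18 libraries. Their sum, which does not depend on how such a region is divided, was 19925, 19527 and 17126 in WT and 13508, 11714 and 12069 in KO at 1 h. The sum at 18 h was 35520, 32148 and 31776 in WT against 36378, 34854 and 40935 in KO, which overlap. Trex1 (-0.31) and Isg20, an RNA exonuclease (-0.13), were not called at 1 h.

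**Figure D4:**
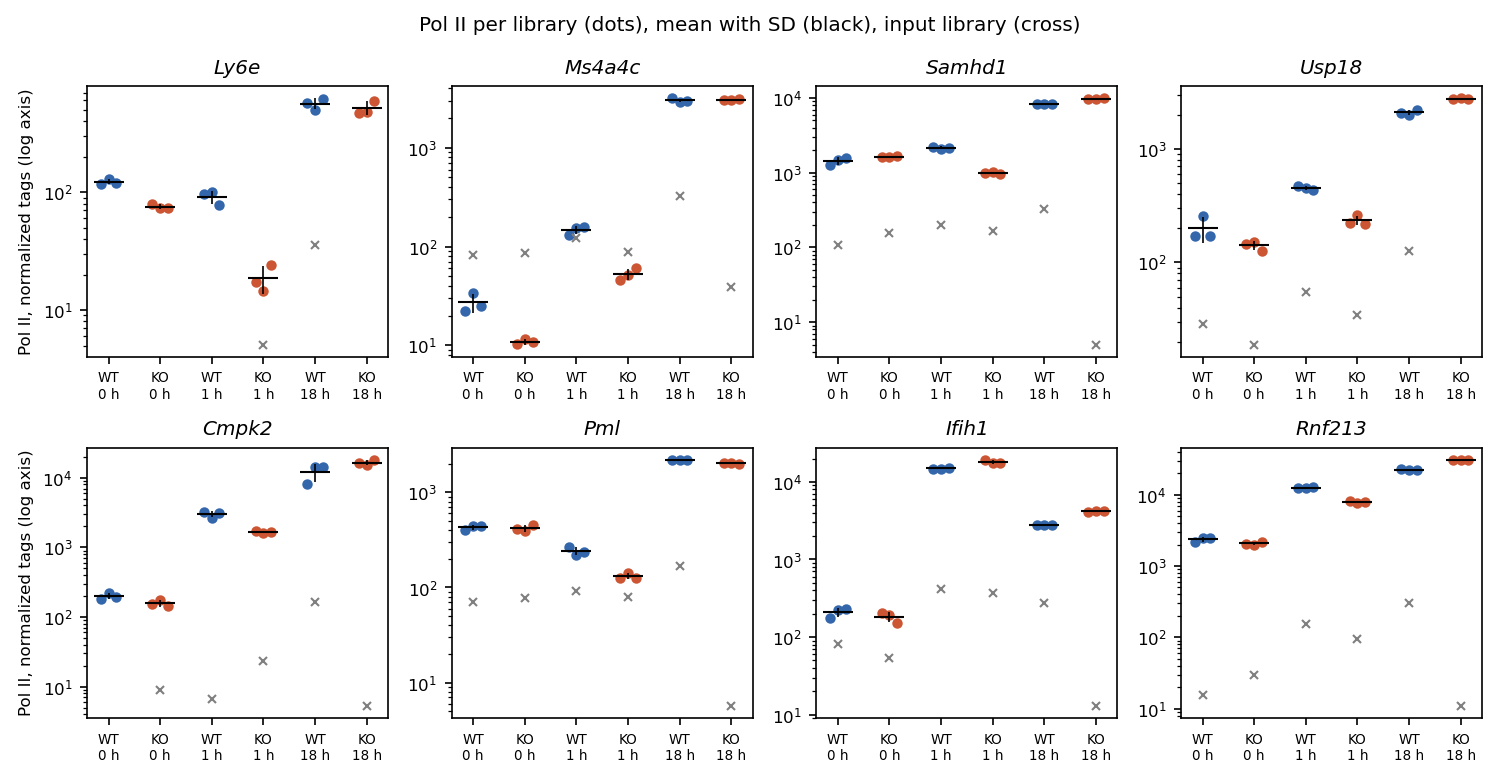
Pol II value (normalized tags, log axis) of Ly6e, Ms4a4c, Samhd1, Usp18, Cmpk2, Pml, Ifih1 and Rnf213 in every library at 0, 1 and 18 h, WT in blue and KO in red. Black marks are means with SD and crosses the input of the group, where it was above 0. At 1 h the KO libraries lie below the WT libraries in each panel except that of Ifih1.

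All 3 ADP-ribosylation genes were lower in KO at 1 h. Parp14 was 10791, 10349 and 10717 in WT and 8539, 8267 and 8327 in KO (-0.34 ± 0.06, adjusted p = 3.2e-04), and at 18 h it was higher in KO, with 12091, 11900 and 12117 against 10256, 10323 and 10500 (0.22, adjusted p = 0.018). Its libraries did not overlap between the genotypes at either time. Parp9 and its partner Dtx3l, which form a complex and are transcribed from a shared promoter, were both lower at 1 h by 0.35. They shared an enriched region in 18 of 18 libraries and do not count as separate measurements.

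Of the nuclear body genes 3 of 4 were lower at 1 h. Pml (chr9:58218076-58249786) was 266, 222 and 235 in WT and 126, 141 and 127 in KO (-0.82 ± 0.08, adjusted p = 4.5e-07), and at 0 h and 18 h its difference was not called (-0.04 and -0.11). Sp100 was 3026, 1743 and 2818 in WT and 1132, 1739 and 1576 in KO (-0.75 ± 0.17, adjusted p = 0.0019), where WT replicate 2 lay only just above the highest KO library, and with input regions left out the difference was 0.41. Daxx, a histone chaperone of these bodies, was 1408, 1444 and 1444 in WT and 1077, 1040 and 1067 in KO at 1 h (-0.43), and 1088, 1035 and 1016 against 1369, 1387 and 1184 at 18 h (0.32). Sp110 was not called at 1 h (-0.04 ± 0.12) and was higher in KO at 18 h, with 1396, 1398 and 1357 against 988, 1131 and 1000. At 18 h Sp110 and Sp100 both had 60.4 normalized tags per kb in KO, as genes within 1 region do, whereas they had 45.4 and 53.8 in WT. Sp100 and Sp110 shared a region in 9 libraries and have near copies beside them, and all of the Pol II of Daxx came from regions that lay mostly outside its window, so these values also depend on neighbouring sequence.

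The largest differences were among the genes for membrane or secreted proteins, of which 5 of 6 were lower at 1 h and none was called at 18 h. Ly6e (chr15:74955051-74959905) was 96.1, 99.9 and 78.5 in WT and 17.3, 14.4 and 24.1 in KO at 1 h (-1.84 ± 0.13, adjusted p = 1.8e-08). It was also lower in KO at 0 h, with 79.5, 72.7 and 73.2 against 118, 130 and 120 (-0.64, adjusted p = 0.0056), and the genotypes overlapped at 18 h (575, 500 and 619 in WT, 471, 482 and 599 in KO). Enriched regions covered 64.1% of its window in WT and 25.4% in KO at 1 h. Ms4a4c was 131, 153 and 156 in WT and 46.1, 51 and 60.1 in KO at 1 h (-1.33 ± 0.11, adjusted p = 1.2e-07), but the inputs stood at 123 and 88.7, so KO was below its input. At 0 h it was 22.4, 34.1 and 25.1 in WT and 10.2, 11.6 and 10.8 in KO (-0.82, adjusted p = 1.2e-04), all below the input. Tor3a, a torsin of the endoplasmic reticulum, was 1718, 1734 and 1869 in WT and 955, 1031 and 1158 in KO at 1 h (-0.76 ± 0.08, adjusted p = 9.5e-07). Bst2, which tethers virus particles (-0.47), and Lgals3bp, a secreted glycoprotein (-0.24), were lower as well, and Rtp4, a receptor transport protein, was not called (-0.13). The annotated start of Rtp4 lies 89634 bp from its start with the most H3K27ac, and its Pol II window overlaps that of Masp1. At 1 h enriched regions covered 8.97% of this window in WT and 8.72% in KO.

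Of the other members 4 of 6 were lower at 1 h and 2 higher at 18 h. Rnf213, a very large ubiquitin ligase (chr11:119393100-119487418), was 12441, 12404 and 12686 in WT and 8030, 7754 and 7843 in KO at 1 h (-0.67 ± 0.05, adjusted p = 1.8e-08). At 18 h it was 22600, 22005 and 22164 in WT and 30800, 30583 and 30738 in KO (0.46, adjusted p = 2.0e-06), and Rnf213 and Ifih1 were the members called at 18 h under every alternative but that on input regions. At 0 h it was slightly lower in KO (2172, 2476 and 2458 in WT, 2025, 2002 and 2182 in KO, adjusted p = 0.021), with libraries that overlapped, whereas over the start alone it was higher (0.40, adjusted p = 0.031). Phf11d, one of several near copies, was 258, 237 and 254 in WT and 179, 125 and 157 in KO at 1 h and 1343, 1323 and 1369 against 1794, 1768 and 1721 at 18 h. Xaf1, which acts in cell death, was 989, 873 and 979 against 636, 642 and 615 at 1 h (-0.58 ± 0.08). Ifi44 was low at 1 h, with 29.8, 22.5 and 27 in WT and 27.3, 5.88 and 6.03 in KO, and although called (-0.78, adjusted p = 0.0097) its libraries overlapped. Ifi35 (-0.07) and Tdrd7, a Tudor domain protein (-0.13), were not called.

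The response to LPS itself was compared between the genotypes with the interaction, in which the WT change on LPS is subtracted from the KO change. At 1 h it was lower for 13 of 39 members (background 4.19%) and higher for 1, Ifih1 at 0.45 (background 14.2%). The largest were Samhd1 (-1.31, adjusted p = 9.9e-08), Ly6e (-1.20, adjusted p = 3.8e-04), Tor3a (-0.82, adjusted p = 7.4e-05) and Pml (-0.78, adjusted p = 1.4e-04). At 18 h it was higher for 12 of 39 (background 4.85%) and lower for none (background 9.93%). Usp18 (0.85, adjusted p = 0.0028), Ms4a4c (0.84, adjusted p = 0.0016) and Cmpk2 (0.80, adjusted p = 0.022) were the largest. The value of Cmpk2 depends on how the region shared with Rsad2 was divided. Ms4a4c had no called difference between the genotypes at 18 h, and its 0 h libraries, which differed, all lay below the input. Ms4a4c, Phf11d and Rnf213 were in both lists (23.1% of the first and 25% of the second), but over the start alone the interaction of Ms4a4c at 1 h was 0.10 and that of Phf11d at 18 h -0.00. The interactions of the 2 times share their 0 h libraries. Under the alternatives other than that on input regions, 3 calls at 1 h held in all (Rnf213, Samhd1 and Tor3a) and none of those at 18 h did. The 12 calls at 18 h became 0 over the start alone, 4 without replicate 2, 20 without WT 0 h replicate 1 and 27 after median centring.

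The difference between KO and WT at 18 h was also set against that at 1 h, a comparison added after the values were seen that uses no 0 h library. It was positive for all 39 members and called for 29 (background 6.79%), with a median of 0.56 against -0.33 over all genes. The largest were Ly6e (1.71), Ms4a4c and Samhd1 (1.35), Usp18 and Cmpk2 (1.33), Ifi44 (1.23), Rnf213 (1.13) and Phf11d (1.06). All 4 nuclear body genes and all 3 ADP-ribosylation genes were among the 29. Regions were shared by Parp9 and Dtx3l in 18, by Sp100 and Sp110 in 9 and by Rsad2 and Cmpk2 in 5 of 18 libraries. The 39 members are thus not all separate measurements, and the value of Cmpk2 depends on how its region was divided. The 29 calls became 17 over the start alone, 17 without replicate 2 and 39 after median centring. Without the regions that overlapped an input region 11 members could be tested, and 1 was called, which was lower.

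H3K27ac around the starts rose on LPS as Pol II did. In WT 35 of 39 members were higher at 1 h (background 25.3%) and 37 at 18 h (background 23.5%), with medians of 1.51 and 1.82. In KO 31 were higher at 1 h (background 20.4%) and 36 at 18 h (background 18.4%), with medians of 1.04 and 1.69. At 1 h in WT Cmpk2 (2.78), Herc6 (2.75), Rsad2 (2.63), Helz2 (2.57) and Zbp1 (2.45) changed most. At 18 h Ifi44 (5.27) and Ms4a4c (3.44) led in WT, and Ifi44 (4.55), Ms4a4c (3.68) and Zbp1 (3.48) in KO. The members not called at 1 h in WT were Uba7 (-0.10), Adar (0.22), Ly6e (0.13) and Rtp4 (-0.98). The annotated starts of Adar, Tdrd7 and Rtp4 held little H3K27ac, and the start with the highest mean lay 15726, 6899 and 89634 bp from them.

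At 1 h H3K27ac was lower in KO for 23 of 39 members (background 7.41%) and higher for 1 (background 11.1%), with a median of -0.50 against 0.05 over all genes. None was called at 0 h by limma (background 0.77%, 6 at an unadjusted p under 0.05). Of the 23, 18 were also lower in Pol II at 1 h (78.3% of the 23 and 64.3% of the 28 lower in Pol II). Leaving out replicate 1 in all groups gave 34 calls (2 higher, 32 lower), whereas leaving out replicate 2 or 3 left none. The fit without replicate 1 also called 7 members at 0 h (3 higher, 4 lower). No call at 1 h held under every alternative.

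Helz2 was 518, 579 and 562 in WT and 341, 242 and 252 in KO at 1 h (-0.98, adjusted p = 5.6e-05), and Cmpk2 593, 671 and 631 against 405, 241 and 328 (-0.97, adjusted p = 0.0012). Zbp1 was 586, 575 and 598 against 434, 138 and 135 (-1.49, adjusted p = 0.0075), so KO replicate 1 lay nearer to WT than the other 2 KO libraries did. In these 3 genes every KO library was below every WT library, and the same was true of Rsad2 (617, 690 and 670 against 422, 406 and 352, -0.73). Daxx was 1362, 1296 and 1504 against 1086, 810 and 746 (-0.67), and Eif2ak2 388, 400 and 422 against 275, 208 and 217 (-0.77). Ifi44 was 33.7, 42.1 and 30.7 against 16, 0 and 0, the largest difference towards lower values in KO (-1.72, adjusted p = 0.0036) but at a low level. All 4 nuclear body genes were lower, as were 6 of 9 RNA sensing genes and helicases, 3 of 6 ISG15 conjugation genes and 1 of 3 ADP-ribosylation genes. Bst2 was 868, 960 and 933 against 368, 690 and 687 (-0.71), with KO replicate 1 the lowest library here.

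Other members with lower H3K27ac in KO at 1 h did not overlap either. Sp110 was 1287, 1259 and 1305 in WT and 876, 769 and 490 in KO (-0.88), Sp100 674, 673 and 667 against 485, 449 and 450 (-0.53), and Pml 411, 385 and 524 against 296, 323 and 293 (-0.51). Ms4a4c was 228, 207 and 238 against 144, 126 and 113 (-0.77), and Xaf1 601, 614 and 627 against 417, 369 and 377 (-0.65). Usp18 was 584, 547 and 555 against 334, 410 and 383 (-0.57), Ddx58 536, 503 and 558 against 398, 332 and 323 (-0.59), and Isg20 488, 539 and 488 against 342, 384 and 343 (-0.49). For Samhd1 and Ly6e, which differed most in Pol II at 1 h with Ms4a4c, H3K27ac was not called and the libraries overlapped. Samhd1 was 745, 701 and 729 in WT and 522, 711 and 666 in KO, and Ly6e 117, 93.8 and 110 against 33.8, 114 and 123, with KO replicate 1 the low library in both. Isg15 was 1057, 1072 and 1122 against 1140, 695 and 661, with KO replicate 1 above WT. Rtp4 was higher in KO (22.7, 37.3 and 34.2 against 0, 0 and 6.71, 1.78), but around its best start the difference was -0.31.

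**Figure D5:**
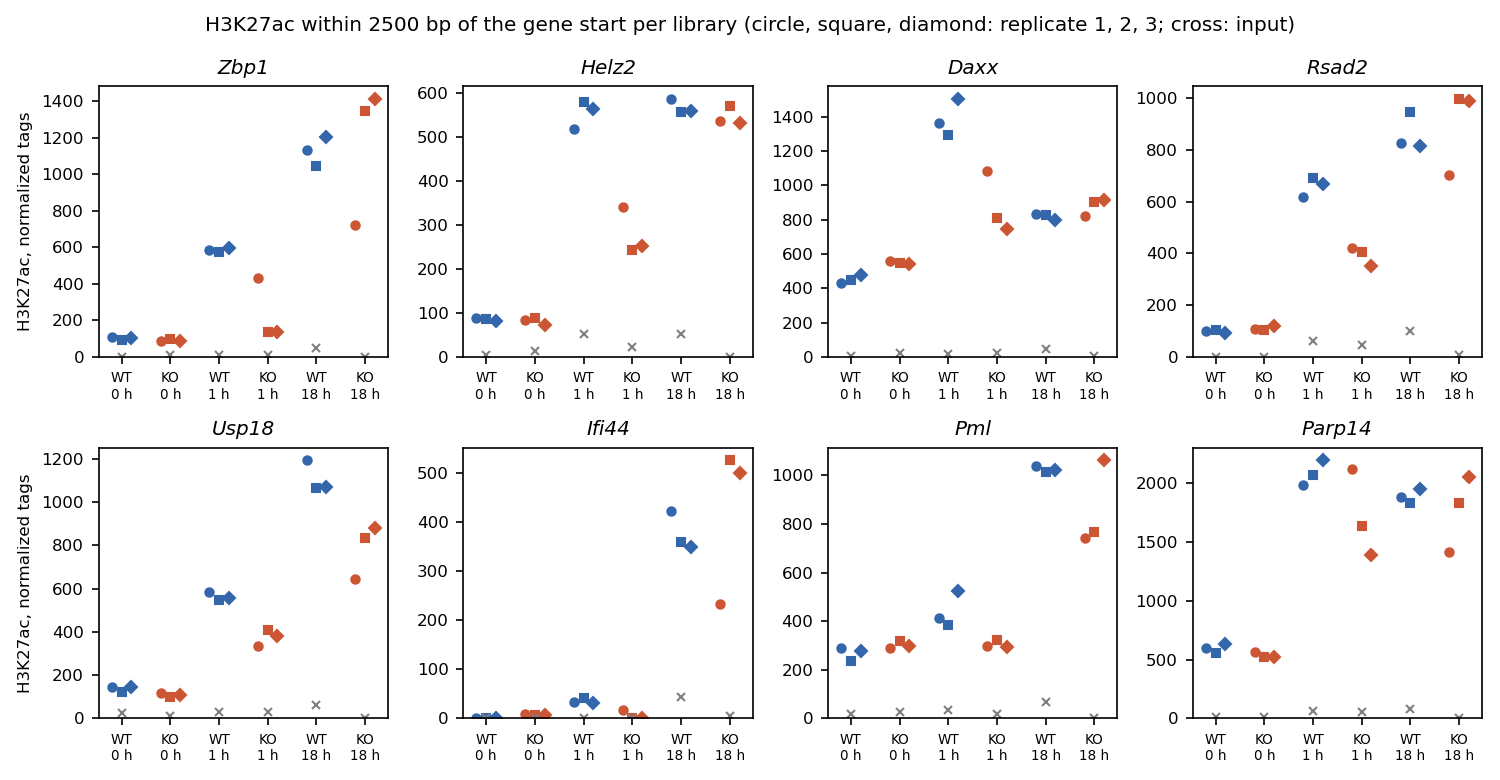
H3K27ac within 2500 bp of the start (normalized tags, linear axis from 0) of Zbp1, Helz2, Daxx, Rsad2, Usp18, Ifi44, Pml and Parp14 in every library at 0, 1 and 18 h. Circles, squares and diamonds are replicates 1, 2 and 3, WT in blue and KO in red, and crosses are the inputs. At 18 h replicate 1 of KO lies below the other KO libraries for Zbp1 (723 against 1346 and 1412) and for Ifi44 (232 against 525 and 499).

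At 18 h 2 of 39 members were lower in H3K27ac in KO (background 2.29%), and none was higher, whereas without replicate 1 in all groups 2 were lower and 5 higher. Usp18 was 1193, 1065 and 1069 in WT and 644, 836 and 878 in KO (-0.50, adjusted p = 0.021), and Sp110 1267, 1124 and 943 against 589, 738 and 710 (-0.70, adjusted p = 0.023). At the same time Pol II over both genes was higher in KO, as given above, but neither H3K27ac call held after median centring (-0.47 and -0.67, adjusted p = 0.064 and 0.067), and that of Sp110 was lost without KO 18 h replicate 1 (-0.60). The median of the members was -0.41 in KO replicate 1 and 0.14 and 0.15 in the other KO libraries of 18 h, against 0.04, -0.03 and -0.12 over all genes. The interaction at 1 h was lower for 5 members, Ifi44 (-2.51), Cmpk2 (-1.12), Daxx (-0.94), Helz2 (-0.92) and Rsad2 (-0.90) (background 0.444%). That at 18 h was called for none by limma (background 0.63%, 5 at an unadjusted p under 0.05). The difference at 18 h minus that at 1 h was called for 11, all positive (background 2.01%), among them Ifi44 (1.79), Cmpk2 (1.01), Eif2ak2 (0.99) and Helz2 (0.92). Leaving out replicate 2 or 3 left none of these, and leaving out replicate 1 gave 29 and 32 calls for the interaction at 1 h and for this difference. Rsad2 and Cmpk2 shared an H3K27ac region in 11 of 18 libraries, and their 18 h values are the same.

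The genes that carry the signal from LPS to interferon and from interferon to the nucleus were taken as a list of 18. For Pol II 6 were higher and 4 lower in KO at 1 h, against 38.2% and 7.5% of all genes. Among the lower ones were the transcription factors Irf7 (449, 383 and 470 in WT, 288, 190 and 273 in KO, -0.79, limma adjusted p = 2.0e-04) and Stat2 (1578, 1437 and 1467 against 987, 992 and 1263, -0.47, adjusted p = 4.2e-04), and the kinase Tyk2 (-0.36). In Irf7 and Stat2 every KO library lay below every WT library. The higher ones were Traf3 (0.49), Mavs (0.43), Tlr4 (0.31), Ticam1 (0.24), Ikbke (0.22) and Ticam2 (0.21), of which the last 4 lay near the median of all genes (0.24). Ifnb1, the gene of IFN-beta, was not called at 1 h, with 161, 259 and 256 in WT and 249, 253 and 313 in KO. At 18 h it was listed at 0 in every WT library and at 9.54, 5.95 and 22.9 in KO, a low level that was called (1.12). Ticam2 was higher in KO at 18 h as well (0.35), and Mavs (-0.35) and the receptor chains Ifnar1 (-0.29) and Ifnar2 (-0.16) were lower. At 0 h Traf3 (-0.74) was lower and Ticam2 (0.35) higher. For H3K27ac 3 of the 18 were higher and 2 lower in KO at 1 h, against 11.1% and 7.41% of all genes. Irf7 (-0.94) was among the lower ones.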

How the data were processed

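Per the labels and the article, reads were trimmed by the authors (Skewer), mapped to mm10 (HISAT2 2.1.0) and cleared of duplicates, and HOMER was run library by library for broad regions, with no input as control. The deposited signal of a region is its tags per 10 M. Per the file headers, windows of 500 bp at a Poisson p of 0.001 were joined when under 1000 bp apart. Whole tags could not be recovered, so no count test was run.

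Regions were assigned to GENCODE vM21 genes (54 with a duplicated symbol left out), a region that reached past a window being shared out by its overlap. Such a sum moves with how much of a locus was found. Log2(signal + 10) was fitted with limma 3.58.1 in R 4.3.3 (6 group means over 18 libraries per antibody, trend, Benjamini-Hochberg over all genes). A gene was tested when above 0 in 2 of 3 libraries of a group compared. Values were tabulated in Python 3.11.15 (numpy 2.4.6, pandas 2.3.3) and in R, where data.table had version 1.17.8, and drawn with matplotlib 3.10.9. The fit was tested on simulated data. Groups came from the sample titles. Pairs of libraries with the same replicate number did not deviate together, so no pairing was used. The alternatives were another pseudocount (1 or 50), no filter, 2 normalizations, input regions left out, a common density floor, a narrower window, a replicate block and libraries left out.

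The members, roles and pathway list were chosen with earlier results of these data known. Library values are given for called members with the largest changes (up to 5 per direction for LPS, up to 8 for KO against WT and the interaction), and for others named for their role. The catalogue number of the Pol II antibody differs between label and article. Of the pathway list, 1 gene counts in the totals and is not reported here singly.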

Additional observations from a re-analysis of the deposited data

Results flagged for a closer look

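The LPS change of Pol II differed between KO and WT, by the limma interaction, for 14 members at 1 h. It was lower in KO for Samhd1 (-1.31), Ly6e (-1.20), Tor3a (-0.82), Pml (-0.78), Sp100 (-0.75), Eif2ak2 (-0.58), Phf11d (-0.55), Daxx (-0.52), Ms4a4c (-0.51), Rnf213 (-0.47), Trim25 (-0.31), Adar (-0.29) and Dhx58 (-0.27), and higher for Ifih1 (0.45). The values of Eif2ak2, Sp100 and Adar turned to 1.93, 0.59 and 0.03 with input regions left out. Those of Adar and Ms4a4c turned to 0.16 and 0.10 over the start alone.

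At 18 h the LPS change of Pol II was higher in KO for 12 members, Usp18 (0.85), Ms4a4c (0.84), Cmpk2 (0.80), Ifih1 and Sp110 (0.77), Rnf213 (0.66), Ube2l6 (0.65), Helz2 (0.53), Phf11d (0.51), Dtx3l (0.41), Xaf1 (0.39) and Parp14 (0.33). The values of Dtx3l and Phf11d turned to -0.17 and -0.00 over the start alone. Those of Ube2l6 and Usp18 turned to -0.01 and -0.03 with input regions left out. That of Cmpk2 depends on how a region shared with Rsad2 was divided.

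For H3K27ac the LPS change at 1 h was lower in KO for Ifi44 (-2.51), Cmpk2 (-1.12), Daxx (-0.94), Helz2 (-0.92) and Rsad2 (-0.90).

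The difference between KO and WT at 18 h differed from that at 1 h for 29 members in Pol II and for 11 in H3K27ac, all of them towards higher values in KO at 18 h.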

How the results depend on the processing

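Calls of LPS changes held best. Counts of members called that changed from those of the report are given, though not all of them. Leaving out every region that overlapped an input region lowered nearly all counts, by construction, since most long regions were dropped and few members could then be tested. For Pol II 0, 2 (1 higher, 1 lower) and 0 members were called for KO against WT at 0, 1 and 18 h and 0 for both interactions. For LPS 7 (4 higher, 3 lower) and 8 (all lower) were called at 1 and 18 h in WT and 8 (2 higher, 6 lower) and 9 (all lower) in KO. The difference at 18 h minus that at 1 h had 1, which was lower. For H3K27ac 0 were called in any comparison.

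Pol II at 0 h (4 members called) gave 2 with no filter, 9 after median centring, 12 after quantile normalization, 2 with the density floor, 2 over the start alone, 11 without WT 0 h replicate 1 and 1 to 4 without each replicate. At 1 h (29) it gave 36 centred, 19 over the start, 31 without WT 0 h replicate 1 and 18 to 25 without each replicate. At 18 h (11) it gave 6 with no filter, 25 centred, 5 over the start and 4 to 5 without each replicate. The interaction at 1 h (14) gave 25 centred, 8 over the start, 10 without WT 0 h replicate 1 and 6 to 9 without each replicate. That at 18 h (12) gave 8 with no filter, 27 centred, 17 after quantile normalization, 7 with the floor and 0 over the start. It gave 20 without WT 0 h replicate 1 and 4 to 11 without each replicate. The difference at 18 h minus that at 1 h (29) gave 39 centred, 33 after quantile normalization and 17 over the start. It gave 33 without WT 0 h replicate 1 and 17 to 28 without each replicate.

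H3K27ac at 0 h (0) gave 1 after quantile normalization, 1 without KO 1 h replicate 1, 2 without KO 18 h replicate 1 and 0 to 7 without each replicate. At 1 h (24) it gave 15 without KO 1 h replicate 2 or 3 and 0 to 34 without each replicate. At 18 h (2) it gave 1 with no filter, 0 centred, 4 without KO 18 h replicate 3 and 0 to 7 without each replicate (5 of these 7 higher). The interaction at 1 h (5) gave 3 centred, 1 within the narrower window, 21, 3 and 2 without KO 1 h replicate 1, 2 and 3, 16 without KO 18 h replicate 1 and 0 to 29 without each replicate. That at 18 h (0) gave 3 and 1 without KO 18 h replicate 1 and 3 and 0 to 3 without each replicate. The difference at 18 h minus that at 1 h (11) gave 19 without KO 1 h replicate 1, 26 without KO 18 h replicate 1 and 0 to 32 without each replicate.

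With a replicate block Pol II gave 4, 29 and 11 calls at 0, 1 and 18 h and 11 for each interaction, and H3K27ac gave 20 at 1 h.

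Among the values of members that could be named in each comparison, 28 changed sign, and the cause was not tested. Over the start alone Pol II changes were, for KO against WT, Rnf213 0.40 and Usp18 0.29 at 0 h and Adar 0.26, Ddx58 0.14 and Usp18 0.08 at 1 h, for LPS at 1 h Pml 0.26 in WT and Samhd1 0.13 in KO, and for the interaction Adar 0.16 and Ms4a4c 0.10 at 1 h and Dtx3l -0.17 and Phf11d -0.00 at 18 h. With input regions left out they were Usp18 0.03 at 0 h, Ddx58 0.08, Eif2ak2 2.07 and Sp100 0.41 at 1 h, for LPS Sp110 -1.53 in WT and -0.86 in KO and Herc6 -0.38 in KO at 1 h and -0.59 at 18 h, and for the interaction Adar 0.03, Eif2ak2 1.93 and Sp100 0.59 at 1 h and Ube2l6 -0.01 and Usp18 -0.03 at 18 h. The LPS change of Ly6e at 1 h in WT was 0.39 centred and 0.60 after quantile normalization and that of Pml 0.01 centred. H3K27ac of Rtp4 in KO against WT at 1 h was -0.31 around its best start. Median centring and quantile normalization moved the Pol II median of all genes at 1 h in WT from -0.82 to -0.16 and -0.10. The alternatives without a single library and around the best start were chosen after seeing the data.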
